A study of Medicago truncatula with 6 samples.

Results

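A set of 12 genes of *Medicago truncatula* was near silent in roots grown without the fungus *Gongronella* sp. w5 and was counted in every library of roots grown with it. They were chosen by their own read counts in both groups. A gene was taken when its level was under 1 CPM (counts per 1000000 counts of the library) on average over the libraries without w5 and was 2 CPM or more in each library with w5. Of the 50443 genes in the table, 25377 had a count in any library and 14 lay within both bounds. The genes Medtr5g059140 and Medtr1g045120 were among these 14 and are not described here, which left 12. Because the counts of both groups chose the genes, their difference between the groups is a description, and the calls printed with it are no test of these genes.

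The samples were root RNA of *M. truncatula* A17 seedlings on agar plates. There were 3 biological replicates without w5 (untreated, here controls) and 3 with w5, a Mucoromycotina fungus, taken 16 days after inoculation. According to the paper, plant and fungus began to interact only some days after inoculation. The roots taken with w5 were those in contact with its mycelia. The labels give no time for the controls. Seeds were sown 3 to a plate in medium without sugar, and with w5 the fungus was placed on glucose medium in the other part of the plate. The paper states that control plants grew alone on the medium without sugar. Whether their plates also held glucose medium is not stated there, so such a difference in medium cannot be told apart from w5. How many plants went into a sample is not given in the sources used here. The libraries held between 6547753 and 7539956 counts, so that 1 CPM was about 7 counts and the bound of 2 CPM was between 13.1 and 13.6 counts in the libraries with w5.

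When a fungus grows along and into a root, the root is known to switch on genes that it barely uses otherwise. Among them are transcription factors that answer to ethylene and jasmonate, hormones of defence and symbiosis, and enzymes that decorate small molecules. Cytochromes P450 insert oxygen into such molecules, and UDP-glucosyltransferases attach glucose to them, which often sets whether a compound is active, stored or released.

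By the descriptions of the study's supplementary gene table, the 12 genes hold 3 enzymes of this kind, 3 transcription regulators, 2 proteins that handle DNA or transfer RNA, 1 transporter and 1 tubby C 2 protein. The remaining 2 genes, Medtr2g067980 and Medtr6g008680, are not in that table and are named only by their locus. None of the descriptions of the 10 annotated genes names a chalcone synthase or another flavonoid enzyme, a lectin, a pathogenesis-related protein or a receptor kinase. Of the 790 genes of that table, 33 were flavonoid and phenylpropanoid enzymes and 37 were defence proteins and lectins by keyword. With shares this low and 2 genes left out by name, nothing is read from this absence. All 12 genes were weakly counted even with w5. Over the 3 libraries of a group they had between 3 and 21 counts without w5 and between 48 and 146 with w5. Per gene length, their mean level with w5 lay between 0.709 and 5.24 FPKM (per kilobase of gene and per 1000000 counts, as deposited), where the median over the 16905 genes tested was 10.4 FPKM.

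**Figure D1:**
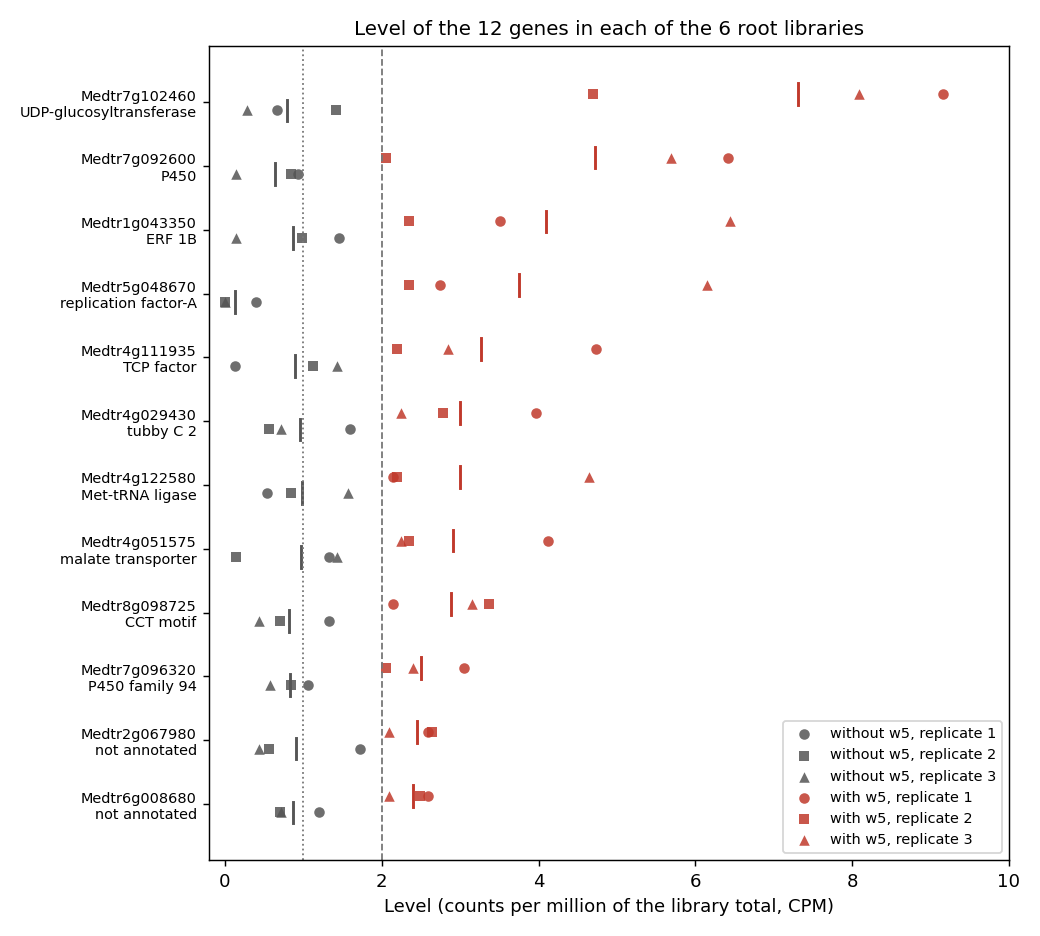
Level of the 12 genes in CPM (horizontal axis, linear) in each of the 3 libraries without w5 (grey) and the 3 with w5 (red), with a symbol for each replicate and a vertical bar at the group mean. The dotted line at 1 CPM is the bound on the control mean, single control points may lie to its right, and the dashed line at 2 CPM is the bound on each library with w5. Only the glucosyltransferase Medtr7g102460 lies above 3 CPM in all 3 libraries with w5.

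Of the 3 enzymes, the UDP-glucosyltransferase gene Medtr7g102460 had 5, 10 and 2 counts in control replicates 1, 2 and 3, and 60, 32 and 54 counts in w5 replicates 1, 2 and 3. Its lowest library with w5 stood at 3.32 times its highest control library in CPM, and in means it went from 0.787 ± 0.572 to 7.32 ± 2.34 CPM (n = 3 per group, SD). The log2 fold change was 3.20 (SE 0.55). With w5 this was the highest level of the 12 in CPM.

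The cytochrome P450 gene Medtr7g092600, whose substrate the annotation does not give, had 7, 6 and 1 counts in the controls and 42, 14 and 38 counts in the libraries with w5. W5 replicates 1 and 3 were high and w5 replicate 2 was low, close to the bound of the rule at 2.05 CPM. The log2 fold change was 2.85 (SE 0.67). Medtr7g096320 encodes a P450 of family 94, in which *Arabidopsis* enzymes oxidise the active jasmonate conjugate. It had 8, 6 and 4 counts in the controls and 20, 14 and 16 counts in the libraries with w5. Both groups were narrow, with 0.827 ± 0.245 and 2.50 ± 0.509 CPM (n = 3 per group, SD). The 95% Poisson intervals of its highest control library (3.45 to 15.8 counts) and its lowest library with w5 (7.65 to 23.5 counts) overlapped.

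Of the transcription regulators, Medtr1g043350 encodes an ethylene-responsive transcription factor 1B, a type that in *Arabidopsis* acts where ethylene and jasmonate signals meet. It had 11, 7 and 1 counts in the controls and 23, 16 and 43 counts in the libraries with w5. Per length it was the highest of the 12 with w5, at 5.24 ± 2.70 FPKM (SD, n = 3), against 4.14 ± 1.32 FPKM (SD, n = 3) for the glucosyltransferase. These 2 levels differ by less than their spread. Its log2 fold change was 2.23 (SE 0.69).

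Medtr4g111935 encodes a factor of the TCP family, which in plants governs cell proliferation and organ growth. Its counts were 1, 8 and 10 in the controls and 31, 15 and 19 in the libraries with w5. Control replicate 1 was almost empty, while w5 replicate 1 was the highest, and the log2 fold change was 1.86 (SE 0.68). Medtr8g098725 holds a CCT motif, found in regulators of light response and the clock. It had 10, 5 and 3 counts in the controls and 14, 23 and 21 counts in the libraries with w5, that is 1.80 ± 0.53 on the log2 scale (SE). Here w5 replicate 1 was the lowest of the 3.

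Medtr5g048670, annotated as a replication factor-A protein 1 with its amino-terminal domain, was the closest of the 12 to silence. Replication factor A binds single-stranded DNA during replication and repair. The gene had 3, 0 and 0 counts in the controls and 18, 16 and 41 counts in the libraries with w5. Its mean level was 0.133 ± 0.230 CPM without w5 and 3.75 ± 2.09 CPM with w5 (n = 3 per group, SD). The fitted log2 fold change of 4.61 (SE 0.93) rests on 3 control counts, all in control replicate 1, and was 7.70 at the highest among 12 alternative fits. Medtr4g122580, a putative methionine-tRNA ligase that charges transfer RNA with methionine, had 4, 6 and 11 counts in the controls and 14, 15 and 31 counts in the libraries with w5. Only w5 replicate 3 was well above the highest control library.

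Medtr4g051575 belongs to the aluminum activated malate transporters, anion channels known for the release of malate from roots and for movements across the vacuole membrane. It had 10, 1 and 10 counts in the controls and 27, 16 and 15 counts in the libraries with w5. Both w5 replicates 2 and 3 lay little above control replicates 1 and 3, and the log2 fold change was 1.57 (SE 0.67). The tubby C 2 gene Medtr4g029430 had 12, 4 and 5 counts in the controls and 26, 19 and 15 counts in the libraries with w5.

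The 2 genes without annotation had the smallest ratios of mean CPM (2.70 and 2.75) and the narrowest spread with w5. Annotation was taken only from the supplementary gene table, which lists genes by their change in these libraries. Small ratios among genes missing from it are therefore fixed in part by the choice. Their means with w5, 2.44 and 2.40 CPM, lay close to the bound of 2 CPM, which leaves little room for spread below them. Nothing is read from either feature. Medtr2g067980 had 13, 4 and 3 counts in the controls and 17, 18 and 14 counts in the libraries with w5. Its highest control library was close to its lowest library with w5, with 95% Poisson intervals of 6.92 to 22.2 and 7.65 to 23.5 counts. Medtr6g008680 had 9, 5 and 5 counts in the controls and 17, 17 and 14 counts in the libraries with w5. Their log2 fold changes were 1.41 (SE 0.58) and 1.45 (SE 0.47).

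In all 12 genes every library with w5 lay above every control library, as in 6.64% of the 16905 genes tested, but the bounds of the rule nearly fix this. The precision of single counts is low. For 10 of the 12 genes the 95% Poisson interval of the lowest library with w5 overlapped that of the highest control library, and only for Medtr7g102460 and Medtr5g048670 did it not. These intervals cover counting error only. All 12 genes passed the expression filter through their counts with w5. Their log2 fold changes ranged from 1.41 to 4.61 with a median of 1.71, against -0.01 over all genes tested. With edgeR's quasi-likelihood test, 12 of 12 had an unadjusted p under 0.05 and a log2 fold change over 1, as did 2.03% of all genes tested, and none had an adjusted p under 0.05 (0.0177% of all genes tested, either direction). DESeq2 called 3 of them at an adjusted p under 0.05, namely Medtr7g102460, Medtr7g092600 and Medtr5g048670. Nothing is read from these counts, as they use the values that chose the genes.

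How the genes varied among the libraries with w5 was left free by the rule above its bound. The highest library was w5 replicate 1 for 7 genes, replicate 2 for 2 and replicate 3 for 3. The lowest was w5 replicate 2 for 6 genes, among them both P450 genes and the glucosyltransferase, replicate 3 for 4 and replicate 1 for 2. The sum over the 12 genes was 47.2, 31.5 and 48.1 CPM in w5 replicates 1, 2 and 3, and 12.3, 8.75 and 7.88 CPM in the control replicates. After TMM scaling of the library totals, the sum in w5 replicate 3 was 1.24 times the mean of w5 replicates 1 and 2.

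Single genes departed from the sum in both directions. In w5 replicate 3, the replication factor-A gene stood at 2.41 times its mean over w5 replicates 1 and 2, the ethylene-responsive factor at 2.20 times and the methionine-tRNA ligase at 2.14 times. The tubby C 2 gene and the malate transporter stood at 0.666 and 0.695 times. The highest library with w5 exceeded the lowest by 3.13 times in Medtr7g092600 and by 1.24 times in Medtr6g008680, the widest and the narrowest of the 12. By these counts the genes did not share 1 order of the libraries. For genes of few counts that order is not resolved. Medtr6g008680, for example, had 17, 17 and 14 counts, and the 95% Poisson interval of 14 counts was 7.65 to 23.5. The numbers of genes highest or lowest in each library carry the same limit.

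**Figure D2:**
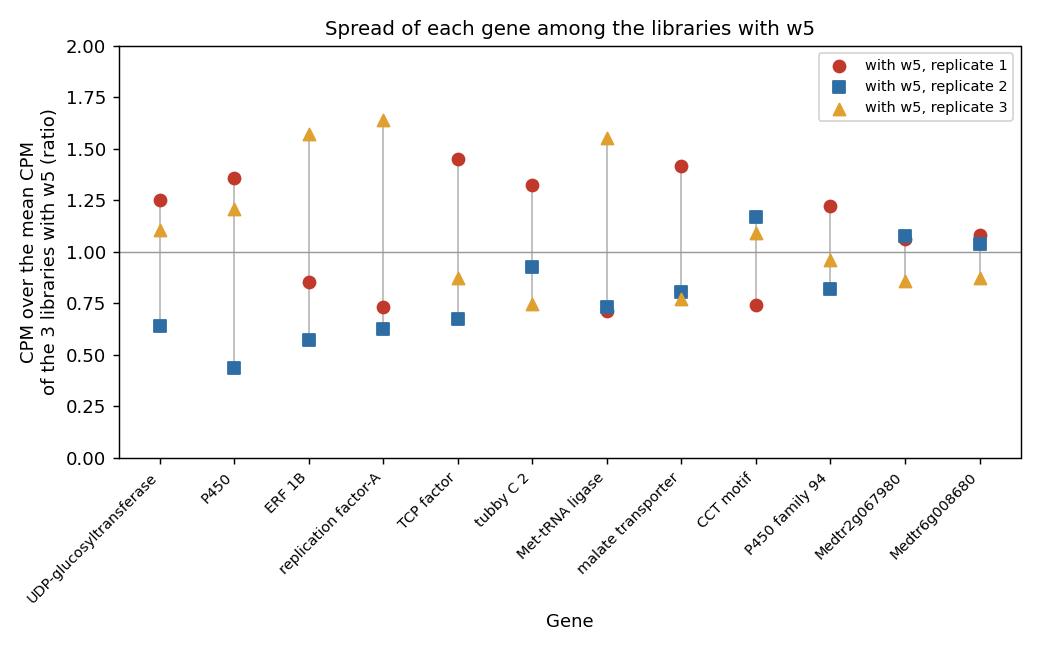
CPM of each of the 12 genes in the 3 libraries with w5, divided by the mean of those 3 libraries (vertical axis, ratio), with the genes ordered from left to right by mean CPM with w5 and a grey line from the lowest to the highest library. Replicate 3 (triangles) lies highest for the ethylene-responsive factor, the replication factor-A gene and the methionine-tRNA ligase, and lowest for 4 other genes.

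The controls also differed among themselves. The highest control library was control replicate 1 for 8 genes, replicate 3 for 3 and replicate 2 for 1 (the glucosyltransferase). In every gene but Medtr5g048670 and Medtr7g092600, at least 1 control library reached 1 CPM, so that these 2 alone would remain if each control library had to stay under 1 CPM. The bound on the control mean lay among genes of like counts. Just inside it were Medtr4g122580, Medtr4g051575 and Medtr4g029430, at 0.984, 0.966 and 0.957 CPM. Just outside were the auxin canalization gene Medtr1g071450 at 1.03 CPM, the unannotated gene Medtr7g111350 at 1.05 CPM and the acyl-transferase gene Medtr5g090830 at 1.05 CPM. Medtr1g071450 had 15, 46 and 41 counts with w5 and Medtr5g090830 had 34, 23 and 40. Each had more in sum than any of the 12 genes but the glucosyltransferase. On the side of w5, Medtr7g096320 and Medtr7g092600 lay just inside at 2.05 CPM in their lowest library and Medtr2g067980 at 2.10 CPM. The short-chain dehydrogenase gene Medtr1g068970 (1.99 CPM), Medtr4g076255 and the late embryogenesis abundant gene Medtr4g075730 (1.95 CPM each) lay just outside.

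Leaving a library out of the rule shows how genes chosen on the other 5 stood in a library that did not choose them. All 6 libraries chose the 12 genes, so this is no independent measure of the 12. With w5 replicate 1 left out, the rule chose 33 genes on the other 5 libraries, and 12 of them had 2 CPM or more in the library left out while 10 had under 1 CPM. With w5 replicate 2 left out it chose 38 genes, of which 12 reached 2 CPM and 12 were under 1 CPM. With w5 replicate 3 left out it chose 37 genes, again with 12 and 12. The median level in the library left out was 1.37, 1.69 and 1.65 CPM, against control medians of 0.801, 0.748 and 0.820 CPM, and it was above the gene's own highest control library in 22 of 33, 25 of 38 and 25 of 37 genes. Over all 7637 genes near silent without w5, the same library was above the highest control library in 29.1%, 27.5% and 26.0%. Those genes had a median of only 0.153, 0.147 and 0.150 CPM in it, so this share is not one for genes of like level. By construction, the genes that reached 2 CPM were each time the 12 described here, and the control values were among those that chose the genes.

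The same was done with the groups exchanged. Under 1 CPM on average with w5 and at 2 CPM or more in each control library were 13 genes, against 14 in the direction described here. These are 0.168% of 7732 genes near silent with w5 and 0.183% of 7637 genes near silent without. With control replicates 1, 2 and 3 left out in turn, the exchanged rule chose 28, 33 and 53 genes, of which 13 reached 2 CPM in the library left out and 9, 7 and 14 were under 1 CPM. The control library left out was above the gene's own highest library with w5 in 19 of 28, 25 of 33 and 31 of 53 genes, with medians of 1.86, 1.69 and 1.43 CPM. Over all 7732 genes near silent with w5, the same library was above the highest library with w5 in 27.2%, 24.0% and 21.0%. Those genes had a median of 0.133, 0.141 and 0.143 CPM in it. These shares lie beside those of w5 without a test of their difference. The counts for w5 leave out 2, 2 and 3 genes that are not described here, while none had to be left out with the groups exchanged. Of the 7637 genes near silent without w5, 7290 reached 2 CPM in no library with w5, 260 in 1 library and 73 in 2 libraries.

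**Figure D3:**
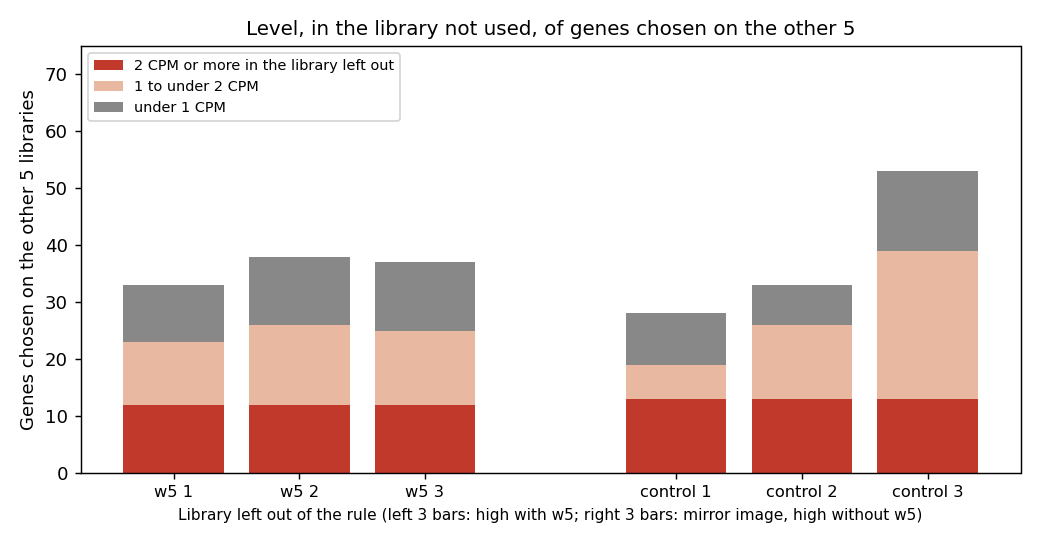
Number of genes chosen by the rule on 5 libraries (bar height), split by their level in the library left out: 2 CPM or more (red), 1 to under 2 CPM (light) and under 1 CPM (grey). In the left 3 bars a library with w5 was left out and 12 genes of 33, 38 and 37 reached 2 CPM, and in the right 3 bars the groups were exchanged and 13 genes of 28, 33 and 53 reached it, where the left bars leave out 2, 2 and 3 genes that are not described here and the right bars none.

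The control libraries were left out in the same way. Without control replicates 1, 2 and 3, the rule chose 28, 27 and 18 genes, of which 3, 6 and 4 were under 1 CPM in the control library left out and 15, 14 and 8 were at 2 CPM or more there. Of the 12 genes, 4 were chosen in all 3 of these cases, namely Medtr5g048670, Medtr6g008680, Medtr7g092600 and Medtr7g096320. A further 5 were chosen in 2 cases and 3 in 1 case.

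By their locus names, the 12 genes lie on 7 chromosomes, with 4 on chromosome 4 and 3 on chromosome 7. No pair was close. The nearest pair on chromosome 7 was 261 genes apart in the order of the table and the nearest on chromosome 4 was 624 genes apart. The gene before and the gene after each of the 12 make 24 neighbours, which the rule did not use. Of these, 12 had no count in any library and 9 were tested, with log2 fold changes between -0.52 and 1.31 and a median of 0.19. Only Medtr7g102450 had a p under 0.05 before adjustment together with an absolute log2 fold change over 1, a threshold that 4.77% of all genes tested passed, 2.03% higher and 2.73% lower with w5.

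Medtr7g102450 lies next to the glucosyltransferase gene Medtr7g102460 and is not annotated in the sources used here. It had 23, 35 and 55 counts in the controls and 125, 40 and 94 counts in the libraries with w5. Like its neighbour, it was lowest in replicate 2 among the libraries with w5, and there it lay below control replicate 3. Its log2 fold change of 1.31 ± 0.49 (SE) had a p of 0.0256 before and 0.339 after adjustment in edgeR, and without control replicate 1, control replicate 2 or w5 replicate 3 the gene did not pass. Whether the 2 genes share reads was not tested. The next neighbours by p were Medtr4g051605 and Medtr8g098735, at 0.76 and 0.19 on the log2 scale with adjusted p of 0.412 and 0.769 from edgeR. Of the neighbours at a lower mean with w5, Medtr7g092580 (-0.52), Medtr8g098715 (-0.27) and Medtr4g029440 (-0.17) had log2 fold changes that passed no threshold, with adjusted p between 0.819 and 0.896 from edgeR.

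Other genes of the same families are given from the study's supplementary gene table, which was picked on these libraries, so their directions are not independent evidence. The keywords that found them were set after the members were known. Of 12 other P450 genes tested, 7 were higher and 5 were lower with w5 at the same threshold in edgeR. They include Medtr1g060550, the other P450 of family 94, which stood at 43.4 ± 19.2 CPM in the controls and at 14.6 ± 2.92 CPM in the libraries with w5 (n = 3 per group, SD). The change was -1.56 ± 0.35 on the log2 scale (SE, edgeR's adjusted p was 0.116), opposite in sign to that of Medtr7g096320. Of the P450 genes not tested, Medtr4g018800 and Medtr1g103680 had a higher mean CPM with w5, and Medtr6g084770 and Medtr2g072250 a lower one. Of 3 other glucosyltransferase genes tested, 2 were higher and 1 was lower, the last being Medtr1g040310 at -2.16 ± 0.51 on the log2 scale (SE, edgeR's adjusted p was 0.124). Of the glucosyltransferase genes not tested, Medtr7g039550, Medtr2g008210 and Medtr0078s0200 had a higher mean CPM with w5. Medtr6g014170, also not tested, had a lower one.

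Of 2 other genes with an AP2 or ethylene-responsive annotation tested, Medtr7g080460 was higher, by 1.91 ± 0.34 on the log2 scale (SE, edgeR's adjusted p was 0.0721), and Medtr1g049140 was lower. A further ethylene-responsive factor 1B, Medtr1g069940, did not pass the expression filter, with 7, 0 and 4 counts in the controls and 17, 9 and 13 counts in the libraries with w5. Both tested genes related to the CCT motif gene, the constans-like genes Medtr1g110870 and Medtr8g104190, were lower. The other gene described as a CCT motif protein, Medtr1g044785, did not pass the expression filter. It had 13, 9 and 5 counts in the controls and 3, 0 and 0 counts in the libraries with w5, opposite in direction to Medtr8g098725. A tubby-F-box-like gene, Medtr1g022370, was higher, by 1.49 ± 0.47 on the log2 scale (SE, edgeR's adjusted p was 0.250). No other TCP factor, malate transporter, tRNA ligase or replication factor-A gene is in that table.

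The summed level of 39 photosystem and light-harvesting genes of the supplementary gene table, none of them among the 12, was between 4834 and 9151 CPM without w5 and between 2459 and 3212 CPM with w5. That table was picked on these libraries, so a shift of the sum is fixed in part by the choice, and no level over all genes of this kind was computed. The part of tissue make-up in the levels of the 12 genes was not tested, and in bulk RNA fewer cells of a type and less RNA per cell cannot be told apart. No marker of root cell types with a locus name was at hand.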

How the data were processed

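Root RNA of *M. truncatula* was sequenced in 6 libraries, 3 without and 3 with w5. The authors deposited raw read counts per gene and the FPKM they made from these counts, the gene length and the library total. According to the paper, a stranded kit and read pairs were used, and the submitters' notes name Bowtie 0.12.2 and mm8, a mouse build. The paper names the *M. truncatula* genome database as the reference for the genes. Which program counted the reads, with which strand setting and on which release of the annotation, is not given in the sources used here. Genes with close copies or antisense partners are therefore uncertain. The paper reports w5 mycelia around the roots and inside root cells, so samples with w5 may hold fungal RNA that the controls lack. Whether fungal reads were counted for any of the plant genes was not tested.

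CPM are counts over the column total. Groups were compared with edgeR 4.0.16 in R 4.3.3 (filterByExpr, TMM, robust quasi-likelihood test, Benjamini-Hochberg over 16905 genes). The SE of a log2 fold change was derived from that test, as its absolute value over the square root of the F statistic. It is thus an approximate value and not one the fit reports. The procedure was tested on simulated data in which only genes over 2 CPM on average were changed, so weaker genes were not covered. The alternatives were DESeq2 1.42.0, other scaling and filters, other bounds of the rule, a replicate block and each library left out. Intervals of counts are exact Poisson intervals (scipy 1.17.1).

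The genes, lists and tests were chosen with earlier results of these data known. The genes named are the 12 members, those nearest the bounds, the 3 neighbours of lowest p in each direction, and genes of the same families. Of these, the genes of the same families were chosen after their values were seen. Names come from the supplementary gene table, and 10 of 12 members matched a RefSeq gene (MtrunA17r5.0-ANR) through its gene ID. Coordinates and sequences are not used here, and no test of relatives by protein sequence was made.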

Additional observations from a re-analysis of the deposited data

How the results depend on the processing

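The number of genes chosen depended mainly on the bounds. It was 12 with TMM or DESeq2 size factors in place of column totals, with the same 12 genes. It was 1 with a control mean under 0.5 CPM (Medtr5g048670), 2 with every control library under 1 CPM, 1 at 3 CPM or more with w5 (Medtr7g102460) and 159 at 1 CPM or more. With each library left out in turn it ranged from 18 to 38. All 12 genes were among those chosen without any one library with w5, where 1 bound fewer had to be met, and 10, 8 and 7 of them without control replicates 1, 2 and 3. The ratio of w5 replicate 3 to the other libraries with w5 lay between 1.12 and 1.24 and the median log2 fold change between 1.61 and 1.72 over 3 alternatives each. Calls of the 12 genes use the values that chose them and are no test. At an adjusted p under 0.05, DESeq2 called 3 of the 12 genes and the quasi-likelihood test without a filter 2, Medtr7g102460 and Medtr5g048670, while the other alternatives, each library left out among them, called 0. Over all genes, 3 passed at that threshold, 541 with DESeq2, 195 without a filter and between 1 and 103 with a library left out. With the replicate number as a block, 176 genes passed over all genes and 0 of the 12. Deviations of same-numbered libraries correlated at 0.23, -0.05 and -0.03, and only control replicate 1 correlated best with its own number. With 3 libraries per group, whose deviations depend on each other, this check cannot tell whether the numbers pair the libraries. Of the neighbours, 0 or 1 passed with a library left out and 1 under every other alternative. The comparison with relatives by protein sequence was not run because no protein table was at hand. At this depth a gene at 1 CPM is about 7 counts, which limits every statement on single genes.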
